A study of Mus musculus with 6 samples.

Results

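The CXC chemokines are small secreted proteins that guide the movement of leukocytes, and their genes were followed here across acute pancreatitis in macrophages of the mouse pancreas. The 10 genes were Cxcl1, Cxcl2, Cxcl3, Cxcl9, Cxcl10, Cxcl12, Cxcl13, Cxcl14, Cxcl16 and Pf4, chosen by name, and all 10 were found among the 31617 genes of the deposited table. In the table they carry the Ensembl identifiers ENSMUSG00000029380 (Cxcl1), ENSMUSG00000058427 (Cxcl2), ENSMUSG00000029379 (Cxcl3), ENSMUSG00000029417 (Cxcl9), ENSMUSG00000034855 (Cxcl10), ENSMUSG00000061353 (Cxcl12), ENSMUSG00000023078 (Cxcl13), ENSMUSG00000021508 (Cxcl14), ENSMUSG00000018920 (Cxcl16) and ENSMUSG00000029373 (Pf4). Cxcl12 lies on chromosome 6, Cxcl14 on 13 and Cxcl16 on 11, and the other 7 on chromosome 5. RNA came from pancreatic cells of wild type Balb/c mice that were sorted as CD45+CD11b+F4/80+, the gate used for macrophages. The treated mice received caerulein, which overstimulates the acinar cells and thereby inflames the gland, as 10 injections at hourly intervals into the peritoneum after an overnight fast, and were sampled on day 1, 3, 4, 5 or 7. The baseline was mock, named day 0, which received saline according to the design text and has no treatment in the sample labels. Day 4 is given by its sample labels and not by the design text. The sample labels, those of mock included, name the model RAP without expanding it. Neither the age nor the sex of the mice is stated in the sources used. A single library, from pooled tissue of more than 3 mice, stood for each day. Differences between days therefore lack a replicate check, and no pair of days was tested. Every comparison with mock rests on the same mock library.

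CXC chemokines are named for a pair of cysteines that an intervening residue separates, and they act through G protein-coupled receptors of the CXCR group. Members with a glutamate-leucine-arginine (ELR) motif before the cysteines, here Cxcl1, Cxcl2 and Cxcl3, attract neutrophils through CXCR2, and in macrophages their genes are early targets of the transcription factor NF-kB. Cxcl9 and Cxcl10 lack the motif, are induced by interferons and attract T and NK cells through CXCR3. Cxcl12 and Cxcl14 are made by many tissues at rest, and Cxcl13 is known from follicles and from macrophages of the body cavities. Cxcl16 is also a transmembrane protein, and Pf4 is a component of platelet granules that macrophages can express as well.

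The libraries held 14853084 to 25726455 reads. Macrophage RNA was described with 8 marker genes (Adgre1, Itgam, Ptprc, Csf1r, Fcgr1, Mertk, Cd68 and Mpeg1), whose summed normalised read count was between 87641 and 151316. None of the 8 was at 0 in any library, but this was also so for markers of acinar cells, B cells and fibroblasts. Detection alone therefore does not show which cells were sorted. Transcripts of acinar cells were present in every library, with a summed level of 7 digestive enzyme and zymogen granule genes that reached 417144 in mock, then 34093, 50578, 16786, 19221 and 502281 over the 5 sampled days. Mock and day 7 thus stood apart from days 1 to 5 in acinar content. In a bulk library, fewer cells of a type and less RNA per cell cannot be told apart.

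The level of a gene is given below as the authors' normalised read count, in the order mock, day 1, day 3, day 4, day 5 and day 7. Per kilobase of exon, the 10 genes differed widely in their mean level over the 6 libraries. Cxcl2 was at 16963, Cxcl1 at 3986, Pf4 at 3232, Cxcl16 at 1966 and Cxcl10 at 706. Cxcl13 followed at 262, Cxcl14 at 221, Cxcl3 at 115, Cxcl9 at 20.2 and Cxcl12 at 13.3 per kilobase. In mock and on day 4, Cxcl2 was the 27th most abundant of all genes by normalised read count, and on day 7 it was in place 316. By mean level 9 of the 10 genes were among the 10000 highest genes, called expressed genes below, and Cxcl9 was just outside them in place 10384.

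**Figure D1:**
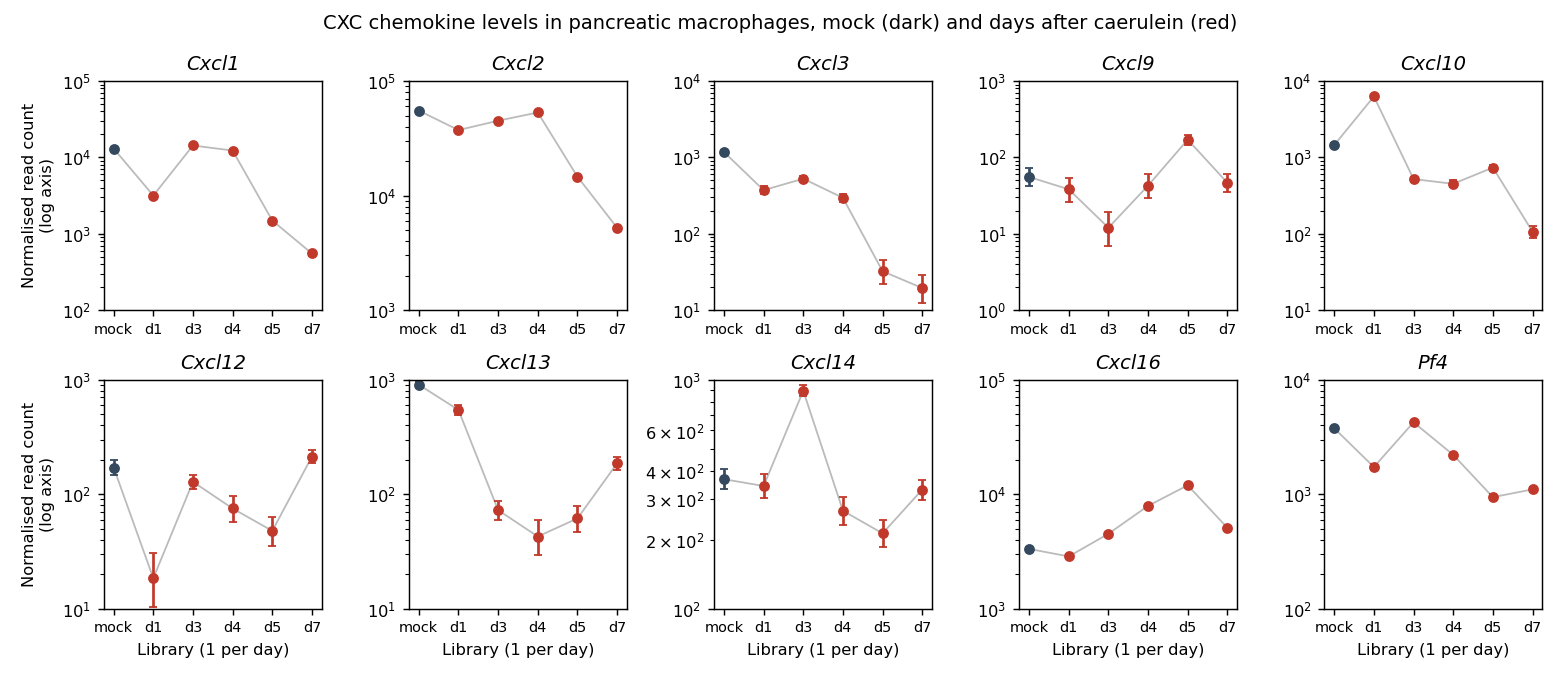
Normalised read count of each CXC chemokine gene (log axis, own scale per gene) in the mock library (dark) and in the libraries of days 1, 3, 4, 5 and 7 after caerulein (red). Bars are 95% counting intervals of 1 library and cover no variation between mice. Cxcl1, Cxcl2 and Cxcl3 were lowest on day 7, Cxcl10 was highest on day 1, and Cxcl9 and Cxcl16 were highest on day 5.

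A log2 ratio below compares normalised read counts after adding a pseudocount of 17.8, which understates the ratios of low genes, and a gene is counted as higher or lower when the ratio reached 2-fold. On day 1 against mock 1 of the 10 genes was counted as higher (Cxcl10), beside 6.68% of expressed genes, and 4 as lower (Cxcl1, Cxcl3, Cxcl12 and Pf4), beside 9.58%. On day 3 Cxcl14 was higher, beside 3.73% of expressed genes, and Cxcl3, Cxcl9, Cxcl10 and Cxcl13 were lower, beside 5.71%. On day 4 Cxcl16 was higher, beside 3.31%, and Cxcl3, Cxcl10, Cxcl12 and Cxcl13 were lower, beside 8.11%. On day 5 Cxcl9 and Cxcl16 were higher, beside 3.68%, and 6 genes were lower (Cxcl1, Cxcl2, Cxcl3, Cxcl12, Cxcl13 and Pf4), beside 6.4%. On day 7 none was higher, beside 1.96%, and 6 were lower (Cxcl1, Cxcl2, Cxcl3, Cxcl10, Cxcl13 and Pf4), beside 6.57%, whereas with quantile normalisation 1 was higher and 6 lower. The median log2 ratio of the 10 genes was -0.64, -0.33, -0.60, -1.72 and -1.97 on days 1, 3, 4, 5 and 7, where that of all expressed genes was 0.15, 0.08, -0.01, 0.12 and -0.11. Cxcl3 was lower than mock on all 5 days and Cxcl13 on 4 of 5, whereas Cxcl14 and Cxcl16 were lower on none.

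Successive sampled days were also compared, which does not involve mock. On day 3 against day 1, 4 genes were higher (Cxcl1, Cxcl12, Cxcl14 and Pf4), beside 9.72% of expressed genes, and Cxcl10 and Cxcl13 were lower, beside 8.21%. On day 4 against day 3 Cxcl9 alone was higher, beside 3.23%, and Cxcl14 alone lower, beside 5.89%, whereas with equal totals 0 were higher and 2 lower. On day 5 against day 4 Cxcl9 was higher, beside 5.4%, and 4 genes were lower (Cxcl1, Cxcl2, Cxcl3 and Pf4), beside 3.11%. On day 7 against day 5 Cxcl12 and Cxcl13 were higher, beside 5.07%, and 5 genes were lower (Cxcl1, Cxcl2, Cxcl9, Cxcl10 and Cxcl16), beside 4.68%. With equal totals this last split was 3 higher and 3 lower. When marker genes of other cells and mitochondrially encoded genes were also left out of the totals, it was 3 higher and 2 lower. Count tests that treat the days as replicates called 0.0143% of 14106 genes (DESeq2) for the 5 caerulein libraries against mock, none of them a CXC chemokine, and 0.142% (DESeq2) for a trend over day, among them Cxcl3 and Cxcl10. With edgeR both tests called 0 genes, with 102 and 806 at an unadjusted p under 0.05.

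**Figure D2:**
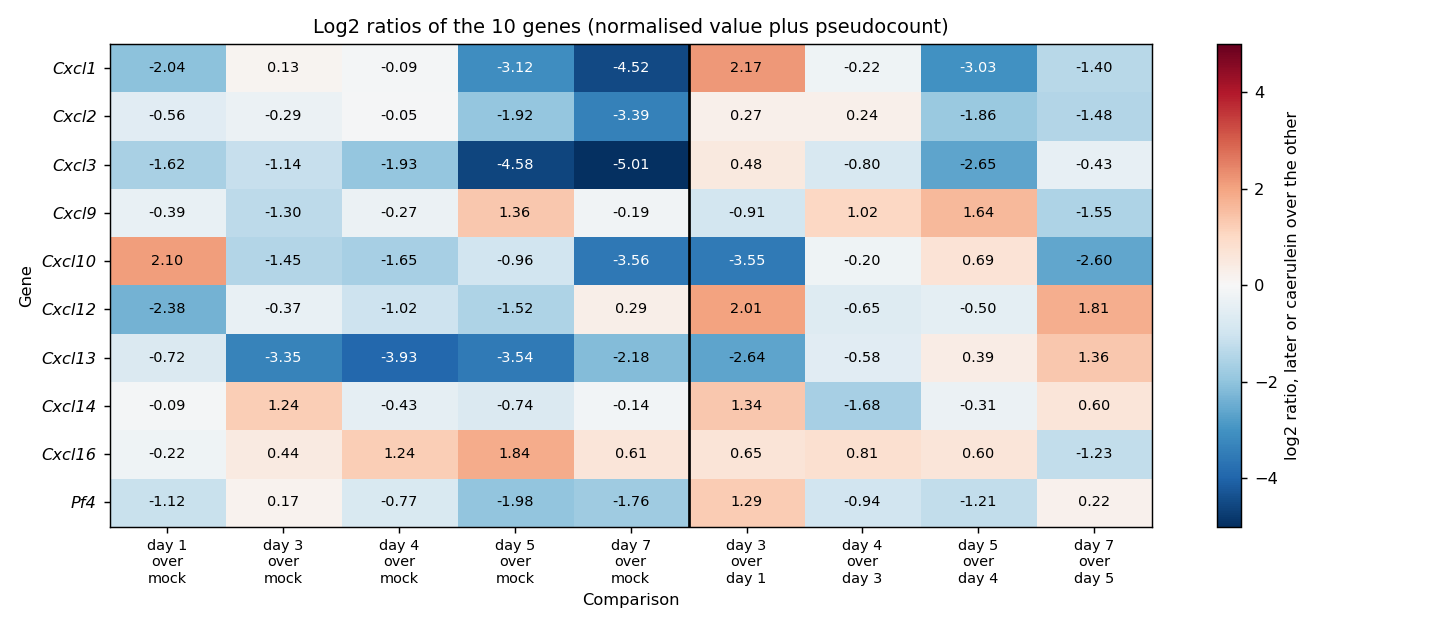
Log2 ratios of the 10 genes (vertical axis) in 9 comparisons (horizontal axis), 5 of a day with mock on the left of the line and 4 of a day with the preceding sampled day on its right. Red is higher and blue lower in the first-named library. The lowest ratio was that of Cxcl3 on day 7 against mock (-5.01) and the highest that of Cxcl1 on day 3 against day 1 (2.17).

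Promoter sequences of 9 of the 10 genes were found in RefSeq (build GRCm38.p6, from 250 bases before to 50 after the start of the gene); Cxcl16 had no entry. They were searched on both strands for a kB motif (GGG and TTCC separated by any 3 bases), an interferon-stimulated response element motif (GAAA, any 2 bases, GAAA) and a gamma-activated sequence motif (TTCNNNGAA). The kB motif was found in 4 of the 9 promoters, those of Cxcl1, Cxcl2, Cxcl3 and Cxcl10, and in 5.56% of all 32851 promoters of the table. The response element motif was found in 2, Cxcl10 and Cxcl14, and in 3.44% of all promoters, and the gamma-activated motif in Cxcl14 alone and in 8.3% of all. None of the 3 motifs was found in the promoters of Cxcl9, Cxcl12, Cxcl13 and Pf4, which says only that these letters are not in this window. All sequences are those of the reference build, and those of the Balb/c mice used here were not examined. The 4 promoters with a kB motif are shown because the courses of their genes are compared with those of NF-kB and interferon target genes below. Capitals mark matches to any of the 3 motifs, and adjoining capitals are overlapping matches on opposite strands.
Cxcl1 promoter, chr5:90890995-90891294, plus strand: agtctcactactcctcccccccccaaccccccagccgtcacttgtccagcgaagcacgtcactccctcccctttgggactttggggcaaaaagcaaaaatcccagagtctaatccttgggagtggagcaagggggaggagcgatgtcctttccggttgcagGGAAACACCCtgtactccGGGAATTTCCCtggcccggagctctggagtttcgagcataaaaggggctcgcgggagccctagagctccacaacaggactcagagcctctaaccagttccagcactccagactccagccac
Cxcl2 promoter, chr5:90903649-90903948, plus strand: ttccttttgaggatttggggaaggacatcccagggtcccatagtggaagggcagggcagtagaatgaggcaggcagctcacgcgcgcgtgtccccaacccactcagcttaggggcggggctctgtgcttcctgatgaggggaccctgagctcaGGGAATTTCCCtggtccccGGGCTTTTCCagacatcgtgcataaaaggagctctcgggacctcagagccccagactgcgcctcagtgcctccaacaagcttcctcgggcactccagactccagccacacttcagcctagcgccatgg
Cxcl3 promoter, chr5:90785851-90786150, plus strand: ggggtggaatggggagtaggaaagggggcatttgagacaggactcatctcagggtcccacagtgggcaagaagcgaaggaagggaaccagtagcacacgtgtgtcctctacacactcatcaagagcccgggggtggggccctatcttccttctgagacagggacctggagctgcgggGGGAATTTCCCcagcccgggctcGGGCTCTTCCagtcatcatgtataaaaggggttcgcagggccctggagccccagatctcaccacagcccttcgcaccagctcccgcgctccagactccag
Cxcl10 promoter, chr5:92348840-92349139, minus strand: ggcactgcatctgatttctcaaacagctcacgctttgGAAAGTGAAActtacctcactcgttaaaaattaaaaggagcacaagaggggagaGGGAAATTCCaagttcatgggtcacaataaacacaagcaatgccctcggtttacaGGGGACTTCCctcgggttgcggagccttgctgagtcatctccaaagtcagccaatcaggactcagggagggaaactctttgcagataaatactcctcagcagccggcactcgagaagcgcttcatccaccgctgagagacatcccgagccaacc
The promoters of Cxcl1, Cxcl2 and Cxcl3 all held GGGAATTTCC, beginning 71, 97 and 73 bases before the start of the gene. Cxcl10 held GGGAAATTCC and GGGGACTTCC, beginning 159 and 104 bases before its start, and the response element match GAAAGTGAAA, beginning 213 bases before it. The match in Cxcl14 was GAAACAGAAA, beginning 172 bases before its start.

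The neutrophil attractants Cxcl1, Cxcl2 and Cxcl3 were near their highest levels in mock and low on days 5 and 7. Cxcl2, also known as macrophage inflammatory protein 2, was at 55174 in mock and at 37308, 45018, 53125, 14614 and 5235 on days 1, 3, 4, 5 and 7. Thus Cxcl2 stayed within 2-fold of mock up to day 4, was 3.78-fold lower than mock on day 5 and was 10.5-fold lower on day 7. Cxcl1, also known as KC, was at 13047 in mock and at 3160, 14311, 12283, 1487 and 551 on the same days. It was 4.13-fold lower than mock on day 1, near mock on days 3 and 4, and 23.7-fold lower on day 7. Cxcl3 was at 1177 in mock and at 372, 525, 295, 32.2 and 19.4, the last values resting on 31 and 23 reads. It was at least 2-fold below its mock level on every day and 60.6-fold lower on day 7, the log2 ratio without pseudocount lying between -6.58 and -5.33 (95% counting interval). The counting intervals of days 5 and 7 overlapped for Cxcl3, as did those of days 1 and 4, and no neighbours in the order of levels overlapped for Cxcl1 and Cxcl2. These genes are close paralogs, and how reads shared between them were counted is not stated, so their split is uncertain where such reads occur.

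The 3 genes did not keep the same proportion to each other. Within a library the number of reads of a gene per read of another does not depend on scaling. There were 4.23 Cxcl2 reads per Cxcl1 read in mock, and 11.8, 3.15, 4.33, 9.83 and 9.51 on days 1, 3, 4, 5 and 7. Days 1, 5 and 7 were therefore poor in Cxcl1 relative to Cxcl2, and mock, day 3 and day 4 were rich in it. Cxcl2 reads per Cxcl3 read numbered 46.9 in mock and 100.4, 85.7, 180.1, 453 and 269 on the same days. The intervals of that ratio were 319 to 667 on day 5 and 179 to 425 on day 7, both above the mock interval of 44.3 to 49.7.

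As a share of all reads of the 10 genes, Cxcl1, Cxcl2 and Cxcl3 together made up 87.4% in mock, then 77.6%, 85.2%, 85.7%, 53.3% and 45.1% over the 5 sampled days. The exact binomial intervals were narrow, 52.7 to 53.9% on day 5 and 44.3 to 45.9% on day 7. Over the same libraries Cxcl16 made up 4.19%, 5.43%, 6.42%, 10.3%, 39.5% and 39.5%. All 10 genes together summed to 79437 normalised reads in mock, then to 52645, 70235.5, 76695, 30261 and 12870.1 over the 5 sampled days. The family total was thus lowest on day 7, when it was made up mainly of Cxcl2 and Cxcl16 reads.

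**Figure D3:**
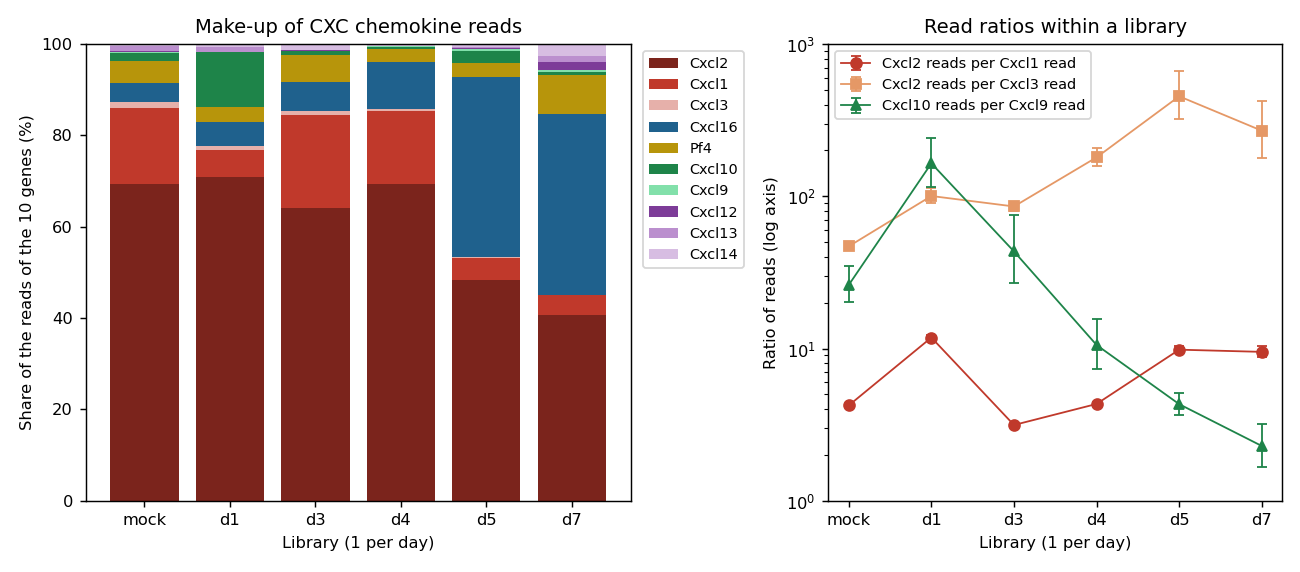
Left, share of each gene in the reads of the 10 CXC chemokine genes (per cent, not corrected for gene length) in each library. Right, reads of a gene per read of another within each library (log axis), with 95% counting intervals. Cxcl16 reached 39.5% on days 5 and 7, and Cxcl10 reads per Cxcl9 read were 164.5 on day 1 and 2.29 on day 7.

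Other NF-kB early response genes were compared with them, using a list of 14 genes that were all among the expressed genes. On day 1 none of the 14 was at least 2-fold higher than mock and 5 were at least 2-fold lower (median log2 ratio -0.77), Il1a being lowest at -3.96 and Icam1 highest at 0.29. On day 4, 1 was higher and 2 lower (median 0.06), with the CC chemokine gene Ccl3 at 1.35 and the granulocyte growth factor gene Csf3 at -2.40. On day 5 none was higher and 5 were lower (median -0.48), Il6 being lowest at -3.65. On day 7, 10 of the 14 were lower (median -2.14), with Il1a at -4.57 and Nfkbia, which encodes the NF-kB inhibitor, at -2.25, while Relb was at 0.09. Members of this list were therefore not alike on days 5 and 7. Cxcl1 reads per 1000 reads of the list were 85.1 in mock and 28.8, 98.6, 57.8, 12.7 and 12.9 on days 1, 3, 4, 5 and 7. For Cxcl2 they were 360.0 in mock and 339.9, 310.0, 249.9, 125.1 and 122.3. Relative to the summed reads of that list, both genes were lower on days 5 and 7 than in mock, by intervals that did not overlap. This holds for the sum and not for each gene, though most of the 14 were above both chemokines on these days. On day 5 Il6 was at -3.65 and Csf3 at -3.23, beside -3.12 for Cxcl1 and -1.92 for Cxcl2. On day 7 Il1a was at -4.57 and Csf3 at -3.83, beside -4.52 for Cxcl1 and -3.39 for Cxcl2.

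The mRNAs of Cxcl1, Cxcl2 and Cxcl3 are known targets of decay factors such as tristetraprolin, encoded by Zfp36, and regnase-1, encoded by Zc3h12a. Of 6 genes for proteins that act on the stability of such mRNAs (Zfp36, Zfp36l1, Zfp36l2, Zc3h12a, Rc3h1 and Elavl1), none was at least 2-fold higher or lower than mock on any day. Zfp36 was at 75570 in mock and at 70501, 69497, 82321, 70431 and 51350, and Zc3h12a at 549 in mock and at 293, 442, 333, 359 and 276. Markers of neutrophils, the cells these chemokines attract, also differed between libraries. All 8 neutrophil markers were detected in every library, and summed to 10526 in mock, then to 7408, 8778, 13802, 4569.6 and 5633. Of the 8, 1 was lower than mock on day 1, 6 on day 3, 6 on day 4 (with 1 higher), 7 on day 5 and 4 on day 7. The day 4 maximum of the sum was mostly Retnlg, at 9911 on day 4 against 3522 in mock, while S100a9 was at 603 on day 4 against 1972 in mock and Ngp at 138 against 866. The F4/80 gate should leave most neutrophils out. The granulocyte receptor gene Cxcr2, the receptor of the ELR members, was at 388 in mock and at 716, 135, 141, 38.5 and 200.2. The part of neutrophils in the levels of Cxcl1, Cxcl2 and Cxcl3 was not tested.

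Cxcl10, an interferon-induced attractant of T and NK cells, was at 6276 on day 1, against 1449 in mock. It was then at 519.8, 450.3, 735 and 106 on days 3, 4, 5 and 7. Day 1 was 4.33-fold above mock, with a 95% counting interval of 2.03 to 2.20 on the log2 scale, and day 7 was 13.6-fold below mock. The levels of days 3 and 4 had overlapping counting intervals. On day 5 the log2 ratio was -0.96, just short of 2-fold, and with equal totals it was -1.11 and counted. Cxcl9, also a ligand of CXCR3, was much scarcer and had another course. It was at 55.4 in mock and at 38.1, 11.97, 42.7, 171 and 46.5 on days 1, 3, 4, 5 and 7, resting on 17 reads at its lowest and 164 at its highest. Day 5 was 3.08-fold above mock, with a log2 ratio without pseudocount of 1.62 and an interval of 1.18 to 2.08. On the other days but day 3 its counting interval overlapped that of mock, and the lower level of day 3 was no longer counted with quantile normalisation, at a log2 ratio of -0.41, or with a pseudocount 4 times as large, at -0.61. With that pseudocount the day 5 ratio was 0.93 and not counted either.

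The make-up of this pair of ligands differed between libraries. Cxcl10 reads per Cxcl9 read were 26.2 in mock, then 164.5, 43.4, 10.5, 4.31 and 2.29 over the 5 sampled days. Over the sampled days after caerulein each value was thus below the one before it. The interval was 116 to 242 on day 1, 3.63 to 5.14 on day 5 and 1.66 to 3.20 on day 7.

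Interferon target genes gave a measure to set beside these ligands. Of 10 antiviral genes 10 were higher than mock on day 1 (median 2.61), 10 were lower on day 3 (median -2.52) and 10 on day 4 (median -2.72). On day 5, 6 of them were higher (median 1.09), with Ifit2 highest at 2.11 and Rsad2 lowest at 0.34, and on day 7, 4 were lower (median -0.87). Of 9 genes for IRF1 and interferon-inducible GTPases, 3 were higher on day 1 (median 0.41) and 2 on day 5 (median 0.17), while 8 were lower on day 3 (median -2.08) and 7 on day 4 (median -1.77). In this list Irgm1 was highest on day 1, at 1.82, and Irf1 lowest, at -0.31, and on day 5 Iigp1 was highest at 1.23 and Gbp4 lowest at -0.48. On day 5 Cxcl10 was at -0.96 while the medians of both lists were above 0. Cxcl10 reads per 1000 reads of the antiviral genes were 46.0 in mock, then 32.3, 100.8, 92.7, 8.27 and 5.19 over the 5 sampled days. Per 1000 reads of the IRF1 and GTPase genes they were 91.2 in mock, then 181.6, 102.9, 60.7, 29.7 and 8.46. The lists thus gave opposite directions against mock on days 1 and 4 and the same direction on days 5 and 7. Cxcl9 reads per 1000 reads of the IRF1 and GTPase genes were 3.49 in mock and 1.10, 2.37, 5.76, 6.88 and 3.69 on the same days. Relative to interferon targets, Cxcl10 was thus lower on days 5 and 7 than in mock, and Cxcl9 was not. Monocyte markers moved beside Cxcl10 on day 1, with 5 of 7 higher than mock and 1 lower, and a summed level of 138908 against 55103.5 in mock. Their part in the level of Cxcl10 was not tested.

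**Figure D4:**
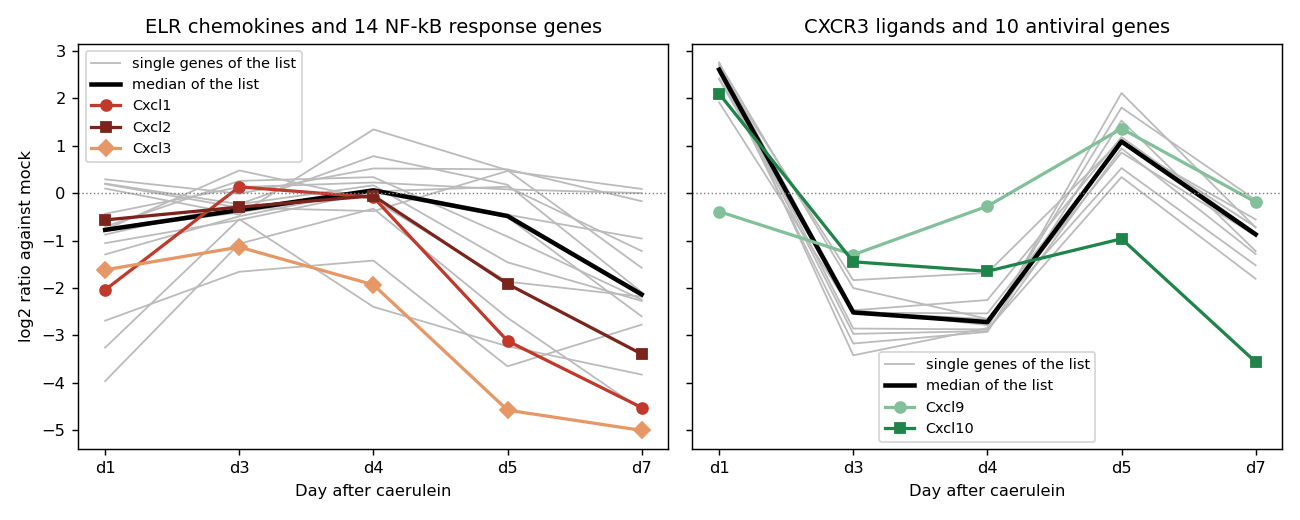
Log2 ratio against mock (vertical axis) on each day after caerulein (horizontal axis) for the ELR chemokine genes beside 14 NF-kB early response genes (left) and for Cxcl9 and Cxcl10 beside 10 antiviral interferon genes (right). Grey lines are single genes of a list and black lines its median. On day 5 Cxcl10 was at -0.96 where the antiviral median was 1.09, and Cxcl3 was at -4.58 where the NF-kB median was -0.48.

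Cxcl12, the ligand of CXCR4 that retains many leukocytes in tissues, was scarce and lowest on day 1. It was at 171 in mock and at 18.5, 128, 75.0, 47.8 and 213 on days 1, 3, 4, 5 and 7, with 15 reads on day 1. Day 1 was 9.26-fold below mock, with an interval of -4.08 to -2.45 on the log2 scale without pseudocount. Mock and day 7 had overlapping intervals, as had mock and day 3, and days 4 and 5. On day 4 the log2 ratio was -1.02, and it was no longer counted with quantile normalisation (-0.91) or a pseudocount 4 times as large (-0.73). Fibroblasts and stellate cells, which a CD45 gate should leave out, are known sources of Cxcl12, and all 8 of their markers were detected in every library. Their summed level was 3072 in mock and 517, 15691, 798, 2043.5 and 8418 on days 1, 3, 4, 5 and 7, and 6 of the 8 were lower on day 1 and on day 4, 1 lower on day 5, 5 higher on day 3 and 6 higher on day 7. Cxcl12 reads per 1000 reads of these markers were 55.6 in mock and 35.7, 8.17, 94.0, 23.4 and 25.3. On day 3 Cxcl12 was thus low relative to their sum. Most of that sum was then collagen reads, with Col3a1 at 7376 on day 3 against 959 in mock. By log2 ratio Col1a1 was highest on day 3 at 3.65 and Dcn lowest at 0.15, beside -0.37 for Cxcl12. The part of stromal RNA in the level of Cxcl12 was not tested.

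Cxcl13, which attracts B cells through CXCR5 and is known from follicles and from macrophages of the body cavities, was highest in mock. It was at 904 in mock and at 544, 72.5, 42.7, 61.4 and 186 on days 1, 3, 4, 5 and 7. Day 1 was within 2-fold of mock, day 4 was 21.2-fold lower, and day 7 was 4.87-fold lower than mock but 3.03-fold higher than day 5. The levels of day 3 and day 5, and of day 5 and day 4, had overlapping intervals. B cell markers were also lower than mock in 5 of 5 cases on days 1 and 3 and in 4 of 5 on days 4 and 5, and their summed level was 5602 in mock and 1714, 676, 1027, 1199 and 4720. Of 6 genes typical of macrophages of the body cavities, such as Gata6 and Prg4, 4 were lower on day 1 and on day 3, 5 on day 4 and on day 5, and none on day 7. Their summed level was 6316 in mock and 879.9, 4003, 3778, 1136 and 6857. Alox15 made up most of this sum on days 3 and 4, at 3338 and 3215 against 4039 in mock, while Prg4 was at 31.0 and 42.7 against 621 in mock and Selp at 31.0 and 44.0 against 276. On day 1 Cxcl13 reads per 1000 B cell marker reads were 317, against 161 in mock, and on day 7 they were 39.4. B cells should mostly be left out by the CD11b and F4/80 gate. The part of B cells or cavity macrophages in the level of Cxcl13 was not tested.

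Cxcl14, a chemokine made by epithelia and stroma, varied least of these 3, its highest level being 4.20-fold its lowest. It was at 368 in mock and at 343, 894, 268, 213 and 331 on days 1, 3, 4, 5 and 7. Day 3 was 2.43-fold above mock, with an interval of 1.12 to 1.45 on the log2 scale, and no other day reached 2-fold. In the order of levels, each neighbouring pair of libraries below day 3 had overlapping intervals. The day 3 library also had the highest fibroblast sum, given above, and the highest sum of 5 duct cell markers, which was 179.5 in mock and 147.7, 905.7, 125.5, 60.3 and 361.5. On day 3, 2 of the 5 duct markers were higher than mock, with Krt19 at a log2 ratio of 3.45. Cxcl14 reads per 1000 fibroblast marker reads were 119.7 in mock, then 664.3, 57.0, 335.5, 104.3 and 39.3. Relative to that sum Cxcl14 was thus high on days 1 and 4, when the sum was low, and low on days 3 and 7. The low value of day 3 holds for a sum of mostly collagen reads and not for each marker. On day 3 Dcn was at a log2 ratio of 0.15 and Cxcl14 at 1.24, while 5 of the 8 markers were at least 2-fold higher than mock. Duct cells, too, should be left out by the CD45 gate. The part of stromal or duct RNA in the level of Cxcl14 was not tested.

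**Figure D5:**
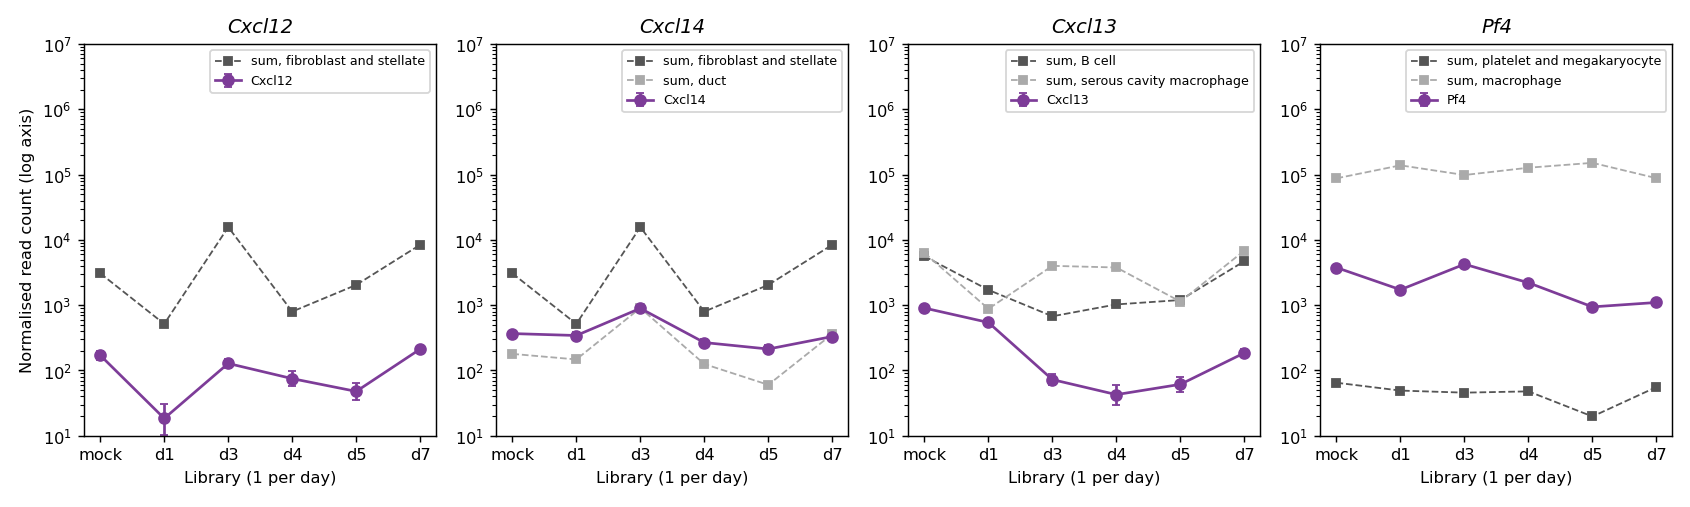
Normalised read count (log axis) of Cxcl12, Cxcl14, Cxcl13 and Pf4 in each library (purple, with 95% counting intervals) beside the summed level of marker genes of other cells or of macrophages (grey). Cxcl14 and the fibroblast and duct sums were highest on day 3, and the platelet sum was between 19.8 and 64.9 in every library where Pf4 was between 942 and 4244.

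Cxcl16, which as a transmembrane protein binds phosphatidylserine and oxidised lipoprotein and as a soluble form attracts cells with CXCR6, was highest on day 5, like Cxcl9. It was at 3327 in mock and at 2859, 4509.7, 7908, 11958 and 5082 on days 1, 3, 4, 5 and 7, and no neighbours in the order of levels had overlapping intervals. Day 5 was 3.59-fold above mock and day 4 was 2.38-fold above it. On day 7 the log2 ratio was 0.61, and with quantile normalisation it was 1.05 and counted. Per kilobase of exon Cxcl16 was at 3958 on day 5, against 7067 for Cxcl2, and in mock at 1101 against 26680. Cxcl16 reads per 1000 reads of the 8 macrophage markers were 38.0 in mock and 20.6, 45.8, 62.1, 79.0 and 57.7, so relative to their sum it was also highest on day 5. This did not hold for each marker. On day 5 against day 4 the log2 ratio was 0.60 for Cxcl16 and 1.04 for Adgre1, and 2 of the 8 markers were at least 2-fold higher. On day 5 against mock Mpeg1 was highest of the 8 at 1.74 and Itgam lowest at -1.44, beside 1.84 for Cxcl16. The sheddase genes Adam10 and Adam17, whose products release soluble Cxcl16, were at log2 ratios between -0.01 and 0.46 and between -0.28 and 0.65 against mock. Of the 6 genes for proteases that process chemokines, 1 was higher on day 1 (Mmp8 at 1.31) and 2 were lower (Mmp12 at -2.64 and Mmp9 at -1.76). None was higher on days 3, 4, 5 and 7 and 3 were lower on day 4 and on day 5, with Mmp8 at -3.40, Mmp9 at -3.27 and Mmp12 at -2.11 on day 5.

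Pf4, the gene of platelet factor 4, was at 3766 in mock and at 1727, 4244, 2205, 942 and 1101 on days 1, 3, 4, 5 and 7. It was 2.18-fold lower than mock on day 1, lower by a log2 ratio of -1.98 on day 5, and 3.42-fold lower on day 7, and no neighbours in the order of levels had overlapping intervals. Of 6 markers of platelets and megakaryocytes, Gp9, Gp1bb, Gp6 and Treml1 were at 10.1 or below in every library, and 1 or 2 were at 0 in each. The other two were above the floor of 3 reads in most libraries: Itga2b was at 29.6 in mock, then at 6.15, 16.2, 29.8, 10.4 and 35.5, and Ppbp was at 27.7 in mock, then at 36.9, 22.5, 10.4, 2.08 and 6.76. The 6 markers summed to 64.9 in mock, then to 49.2, 45.8, 47.9, 19.8 and 55.7, and the part of platelet RNA in the level of Pf4 was not tested. Pf4 reads per 1000 macrophage marker reads were 43.0 in mock and 12.5, 43.1, 17.3, 6.23 and 12.5. Pf4 and Cxcl1 shared the order of high mock and day 3 and lower days 1, 5 and 7, with a Pearson r of 0.90 over the 6 libraries.

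The receptors were compared as a list. Of 8 CXC receptor genes 5 were among the expressed genes. On day 1 none was higher than mock and 5 were lower (median -1.06), with Ackr3, a scavenger of Cxcl12, at -2.24. On day 4, 2 were higher, Cxcr4 at 1.75 and Cxcr3 at 1.19, and 4 were lower. On day 7, 1 was higher and 1 lower (median -0.27), Cxcr3 being highest at 1.08 and Ackr1 lowest, with a level of 2.53 on day 7 against 22.9 in mock. Cxcr6, the receptor of Cxcl16, was at 275 in mock and at 117, 71.8, 130.7, 305 and 553. Cxcr5, the receptor of Cxcl13 on B cells, was at 183 in mock and at 48.0, 7.04, 19.4, 47.8 and 179.9. Protein-coding genes of RefSeq (GRCm38.p6) were ordered by their first coordinate, without regard to where they end. In that order Pf4, Cxcl3, Cxcl15, Cxcl1 and Cxcl2 follow each other on chromosome 5 next to Ppbp. On the same chromosome Art3 comes between Cxcl9 and Cxcl10. Levels of neighbours differed: Cxcl15, between Cxcl3 and Cxcl1, was at 2.59 or below in every library, and Ppbp, beside Pf4, was at 36.9 or below. Cxcl5 was at 9.55 or below and Cxcl17 at 3.69 or below. Cxcl11, a further ligand of CXCR3, was at 213 on day 1, against 19.1 in mock, and at 23.9 or below on the later days. The RefSeq table lists Cxcl11 as a transcribed pseudogene in the reference build, and its sequence in the Balb/c mice used here was not examined.

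Across the 6 libraries, 5 of the 45 pairs among the 10 genes had a Pearson r of log2 levels above 0.8, all among Cxcl1, Cxcl2, Cxcl3 and Pf4. The r was 0.95 for Cxcl1 and Cxcl2, 0.92 for Cxcl2 and Cxcl3, 0.90 for Cxcl1 and Cxcl3, and 0.91 for Cxcl3 and Pf4. Leaving out 1 library at a time, the r of Cxcl1 and Cxcl2 stayed between 0.91 and 0.99. The most negative values were -0.84 for Cxcl9 and Cxcl14 and -0.81 for Cxcl13 and Cxcl16. Such values describe 6 points that share library, depth and scaling, and high ones are common: 106 expressed genes had an r above 0.9 with Cxcl1 and 307 with Cxcl10.

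The expressed genes whose course was most like that of a member, by Pearson r over the 6 libraries, were as follows. For Cxcl1 they were Ciart (0.998), Crem (0.994) and Id3 (0.988), and for Cxcl2 Dusp22 (0.982), Gm22816 (0.979) and Blvrb (0.977). For Cxcl3 they were Il1r2 (0.990), which encodes the decoy receptor of interleukin 1, Pi4k2b (0.978) and Areg (0.977), the gene of amphiregulin. Cxcl10 was most like C5ar1 (0.993), the complement C5a receptor gene, Gpbp1 (0.992) and Pdss1 (0.983). Cxcl9 was most like Enpp4 (0.991), Best1 (0.987) and Naip5 (0.984). The courses nearest to Cxcl12 were those of Arhgdig (0.985), Strbp (0.985) and Dtnb (0.977), and those nearest to Cxcl13 were Slc2a1 (0.996), the glucose transporter gene, Abhd17b (0.971) and Glipr2 (0.970). Cxcl14 was nearest to Gtse1 (0.987), a gene of dividing cells, Dab2 (0.986) and Cbx5 (0.978). For Cxcl16 the nearest were Rnf180 (0.989), Prkar1b (0.982) and B4galt3 (0.980), and for Pf4 they were Ydjc (0.980), Plscr1 (0.977) and Vegfa (0.969). Their ranges were often far smaller: Abhd17b spanned 0.13 on the log2 scale where Cxcl13 spanned 3.93, whereas Il1r2 spanned 4.23 where Cxcl3 spanned 5.01.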

How the data were processed

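RNA-seq of sorted pancreatic macrophages was analysed from 1 deposited table of 31617 genes and 6 libraries, and each library was placed by its title. The authors deposited a normalised signal, per the file headers. In each library 100% of values were whole multiples of 1 step within a tolerance of 0.01 reads, so reads were recovered from the authors' values. Bowtie 0.12.2 and the build mm8 are named, without a role, in the submitters' processing notes; no source used here gives the counter, the annotation or the strandedness. Identifiers were matched to a table of mouse gene names in 99.4% of cases.

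The 10000 genes of highest mean level are called expressed. Log2 ratios used a pseudocount of 17.8 (1 millionth of the mean column total). Intervals at 95% were exact (Poisson for a level, Clopper-Pearson for ratios and shares) and reflect counting error alone, because PCR copies could not be told from separate molecules. A floor of 3 reads was worth 2.11 to 3.88 units. Levels per kilobase used the merged exon length of GENCODE M21, which may differ from the authors' annotation and overstates the length of genes with rare long isoforms. With 1 library per day no test of a day was possible. As count tests on the recovered reads, edgeR 4.0.16 (quasi-likelihood) and DESeq2 1.42.0 were applied (R 4.3.3) to the 14106 genes that had 60 reads or more, once comparing the 5 caerulein libraries with mock and once fitting a trend over day, a test chosen after seeing the data. The trend was fitted over all 6 libraries, with mock as day 0. Both tests treat days as replicates. The 2-fold calls and counting intervals of day 1 against mock and the edgeR trend test were tried on simulated data. The other statistics, DESeq2 included, were not. Calculations ran under Python 3.11.15 with scipy 1.17.1, pandas 2.3.3 and numpy 2.4.6.

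The genes, lists and tests were chosen with earlier results of these data known. The genes named are the 10 chemokines, for each the 3 expressed genes with the highest Pearson r, and from each list the highest and lowest ratios of the comparison described. Others were named after their values were seen: in the lists, Nfkbia, Zfp36, Zc3h12a, Cxcr2, Cxcr3, Cxcr6, Cxcr5, Mmp9, Mmp12, Gata6, Prg4, Selp, Alox15, Retnlg, S100a9, Ngp, Itga2b, Ppbp, Col3a1, Adgre1, Adam10 and Adam17. Of 149 list genes 148 were found, and 2 further genes of the lists are not reported here. The alternatives were other pseudocounts, scalings and backgrounds.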

Additional observations from a re-analysis of the deposited data

How the results depend on the processing

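Counts of genes at least 2-fold higher or lower stayed within 1.5 times under most alternatives, and no counted gene changed direction under any pseudocount or scaling tried. The exceptions were counts of 5 or fewer. With a pseudocount 4 times as large, 1 gene was higher on day 5 against mock, 0 on day 4 against day 3 and 1 on day 7 against day 5. With libraries scaled to equal totals, 0 were higher and 2 lower on day 4 against day 3, and 3 were lower on day 7 against day 5. A further scaling left marker genes of other cells and mitochondrially encoded genes, together, out of these totals. With it 0 were higher and 2 lower on day 4 against day 3, and 3 higher and 2 lower on day 7 against day 5. With quantile normalisation 1 gene, Cxcl16, was higher on day 7 against mock and 0 on day 4 against day 3. Scaling to equal totals moved the median expressed gene from 0.15 to -0.08 on day 1 and from -0.11 to 0.16 on day 7 against mock. The highest and lowest library of all 10 genes were the same under 4 other scalings, but with quantile normalisation Cxcl2 was tied between mock and day 4. After scaling without marker genes of other cells and mitochondrially encoded genes, Cxcl1 was highest in mock in place of day 3. The pairs with r above 0.8 numbered 5 to 7 when 1 library was left out. The cause of these shifts was not tested.

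Against mock, edgeR called 0 of 14106 genes in the 5 caerulein libraries (102 at an unadjusted p under 0.05) and DESeq2 called 2 (117 unadjusted), none of them among the 10 chemokine genes, Cxcl10 having no adjusted p in DESeq2. For the trend over day edgeR called 0 (806 unadjusted; background 0%), with 0.726 as the lowest adjusted p of the 10 genes, and DESeq2 called 20 (0.142%). Of the chemokines DESeq2 called 2, with mock counted as day 0: Cxcl3 with a slope of -0.80 log2 per day (adjusted p = 0.000479) and Cxcl10 with -0.71 (adjusted p = 0.0075). Unadjusted p-values were under 0.05 for 2 of the 10 genes in edgeR and for 7 in DESeq2. Depth limited Cxcl3 on days 5 and 7, Cxcl9 on day 3 and Cxcl12 on day 1, with 31, 23, 17 and 15 reads. It also limited Cxcl9 on day 1, with 31 reads, and Cxcl9 and Cxcl13 on day 4, with 33 each. No paired analysis was possible because each day had 1 library.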
